A study of Gallus gallus with 8 samples.

Results

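Glycolysis turns glucose into pyruvate through a fixed chain of enzymes, and lactate dehydrogenase then converts pyruvate and lactate into each other. Many of its steps can be carried by more than 1 gene, so that tissues differ in which isoenzyme they use as well as in how much enzyme they make. In the chick head, migrating cranial neural crest cells are known for high glycolysis. The 10 enzyme genes described here are HK1, HK2, PFKP, TPI1, GAPDH, PGK1, PGAM1, ENO1, LDHA and LDHB. They were taken by gene name from a table of 24356 chick genes, each name matched 1 row, and all 10 were among the 16861 genes that passed a filter on low counts.

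Their RNA was measured by RNAseq in cells sorted from chick embryos that had received an EGFP reporter plasmid by in ovo electroporation at somite stage (ss) 3 to 5 by the sample labels, or ss 3 to 6 by the series' design text. In 4 libraries the reporter was driven by the Lmx1aE1 enhancer, active in the otic placode that forms the inner ear, and in the other 4 by the Sox3U3 enhancer, used to mark epibranchial placode cells that form cranial sensory ganglia. Each library came from 2000 EGFP+ cells collected at ss 18 to 21, and no library of untreated cells or of another genotype enters the comparison. The reporters mark whatever cells in the targeted head tissue used the enhancer, so a library is a sorted mixture and not a single cell type. The study describes the tissue taken in 2 ways, as whole heads in its methods and as the dissected ear region in its results, so which other cells could enter a sort is not settled. Its methods call the libraries biological replicates, without saying how many embryos went into each. Levels are CPM, counts scaled to a common library total with TMM, a correction for library composition. CPM is not divided by gene length, so it compares libraries for 1 gene and not 1 gene with another. A positive log2 fold change means a higher level in Lmx1aE1-EGFP+ cells, and a gene was called where the adjusted p of edgeR's quasi-likelihood test, corrected over all genes tested, was under 0.05.

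The libraries held 6559872 to 45183366 counts, with 2 deeper and 2 shallower libraries in each group. LMX1A, whose enhancer drives the otic reporter, was at 15.3 to 18.3 CPM in Lmx1aE1-EGFP+ libraries and 5.78 to 8.27 CPM in Sox3U3-EGFP+ libraries, and SOX3 was at 5.76 to 9.69 and 11.4 to 13.9 CPM. The 10 otic markers summed to 926 to 1220 CPM against 348 to 449 CPM. SOX10, the most abundant, was alone at 706 to 948 and 149 to 208 CPM, so the gap between the sums came largely from this gene. Only 3 of the 9 otic markers tested were called higher in Lmx1aE1-EGFP+ cells, PAX2 was called higher in Sox3U3-EGFP+ cells and HMX3 fell under the filter. All 4 tested epibranchial markers were called higher in Sox3U3-EGFP+ cells. Of 9 neural crest markers 6 were called higher in Lmx1aE1-EGFP+ cells, and SOX9 was called higher in the Sox3U3-EGFP+ group (summed level 751 to 841 CPM against 243 to 327 CPM). All 9 epithelial markers were called higher in Sox3U3-EGFP+ cells (3770 to 4860 CPM against 727 to 1080 CPM). No marker of these lists was at 0 in all 8 libraries. As a background for these counts, edgeR called 12.1% of all genes tested towards the Lmx1aE1-EGFP+ group and 11.3% towards the other. The groups thus differ in crest-like and epithelial genes as well as in the epibranchial ones. For the otic markers the picture was mixed, and their summed difference rested largely on SOX10. SOX10 and SOX8, 2 of the 3 called higher in Lmx1aE1-EGFP+ cells, were counted as otic only. Whether crest-like cells contributed to their levels was not tested, so the otic sum is not a measure of otic cells alone. In such bulk libraries, fewer cells of a type and less RNA per cell cannot be told apart.

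Among the 10 enzymes only the lactate dehydrogenase genes, LDHA and LDHB, passed the test, and no difference passed it for the other 8. LDHB rose and LDHA fell in Lmx1aE1-EGFP+ cells, by log2 fold changes of 0.73 and -0.78, while those 8 genes lay between -0.17 and 0.25 with adjusted p-values of 0.207 to 0.983 from edgeR's quasi-likelihood test. Therefore 1 of 10 enzymes was called higher in Lmx1aE1-EGFP+ cells, against 12.1% of all genes tested, and 1 of 10 in Sox3U3-EGFP+ cells, against 11.3%. Both shares are near the background. No enzyme passed the study's second threshold of an absolute log2 fold change over 1.5, either with edgeR, with DESeq2, with limma-voom or at an unadjusted p, whereas 0.712% of all genes did so towards Lmx1aE1-EGFP+ and 2.47% towards Sox3U3-EGFP+ cells, and 23.3% were called in either direction without that threshold. For 3 of the 10 enzymes every library of a group lay above every library of the other, against 26% of all genes tested. The median log2 fold change was -0.04 for the 10 enzymes and -0.04 for all genes tested. Summed over the 10 enzymes, Lmx1aE1-EGFP+ libraries held 18627 ± 1009 CPM and Sox3U3-EGFP+ libraries 18842 ± 1788 CPM (SD, n = 4 each), with overlapping ranges. GAPDH was the largest part of both sums, with means of 9089 and 10234 CPM. Its lower mean in Lmx1aE1-EGFP+ libraries offset the higher mean of LDHB, 2827 against 1700 CPM. CPM is not divided by gene length, so the sums do not show that total enzyme RNA was equal.

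**Figure D1:**
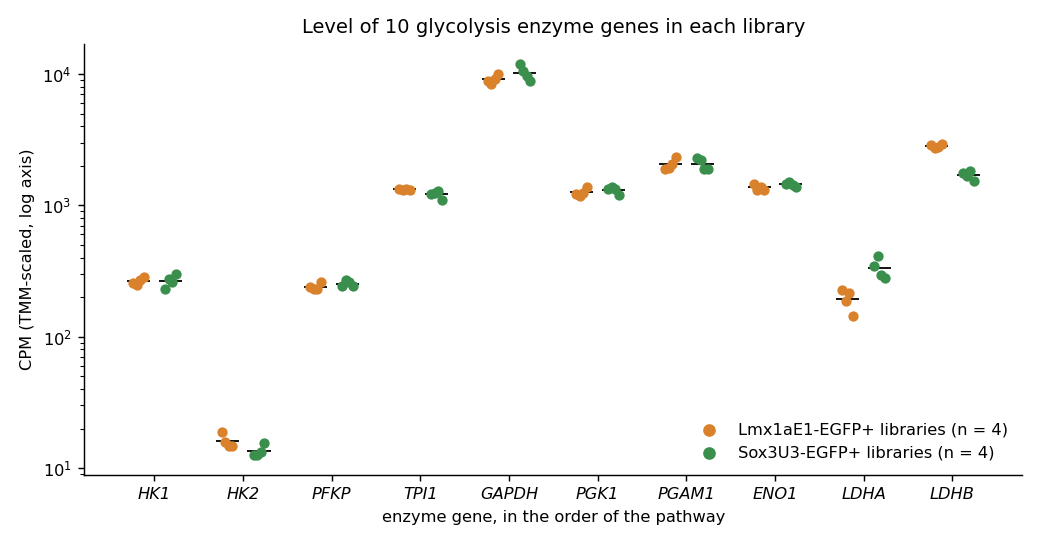
Level of the 10 enzyme genes in each of the 8 libraries, as TMM-scaled CPM on a log axis, with 1 point per library and a line at the group mean (n = 4). Orange and green points lie close together for 8 genes and apart for LDHA, from 144 to 226 CPM in Lmx1aE1-EGFP+ libraries and 278 to 408 CPM in Sox3U3-EGFP+ libraries, and for LDHB, from 2723 to 2940 and 1537 to 1837 CPM; heights of different genes are not comparable.

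The hexokinases, which trap glucose in the cell by phosphorylating it, open the chain. HK1 (ENSGALG00000004222), the widely expressed form, had 258, 247, 270 and 285 CPM in Lmx1aE1-EGFP+ libraries 1 to 4 and 231, 273, 260 and 299 CPM in Sox3U3-EGFP+ libraries 1 to 4. The ranges lay on top of each other, and the log2 fold change was -0.004 with a 95% interval of -0.21 to 0.20. HK2 (ENSGALG00000034855), the form that is inducible in mammalian muscle, had 18.7, 15.9, 14.7 and 14.7 CPM in Lmx1aE1-EGFP+ libraries and 12.5, 12.6, 13.3 and 15.4 CPM in Sox3U3-EGFP+ libraries. It had the fewest counts of the 10 genes, 105 to 574 per library, and the widest interval of the 8 genes that were not called, -0.11 to 0.61 around a log2 fold change of 0.25. Only Sox3U3-EGFP+ library 4 reached the Lmx1aE1-EGFP+ range.

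PFKP (ENSGALG00000006939) encodes the platelet form of phosphofructokinase, the enzyme that commits sugar to glycolysis. It had 238, 231, 229 and 259 CPM in Lmx1aE1-EGFP+ libraries and 243, 271, 259 and 241 CPM in Sox3U3-EGFP+ libraries, a log2 fold change of -0.08 (95% interval -0.27 to 0.11). TPI1 (ENSGALG00000014526), which interconverts the triose phosphates, was the steadiest gene within a group, at 1331, 1300.2, 1332 and 1317 CPM in Lmx1aE1-EGFP+ libraries, a coefficient of variation of 1.13%. In Sox3U3-EGFP+ libraries it had 1228, 1247, 1277 and 1097 CPM. The libraries did not overlap, as for 13.7% of all genes tested in this direction, but the difference was small and was not called (log2 fold change 0.12, 95% interval -0.04 to 0.29, adjusted p = 0.285 from edgeR's test).

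GAPDH (ENSGALG00000014442), which oxidizes glyceraldehyde 3-phosphate and is a common reference gene, took 0.842% to 1.22% of all counts. It had 8909.8, 8372, 9117 and 9956 CPM in Lmx1aE1-EGFP+ libraries and 12000.2, 10520.3, 9631 and 8783 CPM in Sox3U3-EGFP+ libraries. Sox3U3-EGFP+ libraries 1 and 2 were above the Lmx1aE1-EGFP+ range and libraries 3 and 4 within it. In both groups the deeper libraries, Sox3U3-EGFP+ 1 and 2 and Lmx1aE1-EGFP+ 3 and 4, had more GAPDH than the shallower ones. The log2 fold change was -0.22 among the deeper libraries and -0.09 among the shallower ones, and an effect of depth was not tested. The means were 9089 ± 658 and 10234 ± 1375 CPM (SD, n = 4 each), and the log2 fold change was -0.17 (95% interval -0.37 to 0.03, adjusted p = 0.207 from edgeR's test). With limma-voom and sample weights it was called, at -0.24 (adjusted p = 0.0187), and this was the only one of 19 other settings that called any of the 8 genes. Without Sox3U3-EGFP+ library 1 the value was -0.09.

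At the steps of PGK1, PGAM1 and ENO1, which follow GAPDH, the groups overlapped. PGK1 (ENSGALG00000007936), which makes ATP from bisphosphoglycerate, had 1209.9, 1186, 1245 and 1377 CPM in Lmx1aE1-EGFP+ libraries and 1337, 1374, 1329 and 1198 CPM in Sox3U3-EGFP+ libraries (log2 fold change -0.06, 95% interval -0.24 to 0.11). PGAM1 (ENSGALG00000007606), a phosphoglycerate mutase, ranged from 1880.3 to 2339 CPM and from 1898 to 2297 CPM (log2 fold change -0.02, 95% interval -0.22 to 0.18). ENO1 (ENSGALG00000002377), the enolase found in most tissues, ranged from 1311 to 1461 CPM and from 1374 to 1511 CPM (log2 fold change -0.07, 95% interval -0.24 to 0.09). For the 7 uncalled genes other than HK2, all 95% intervals lay between -0.37 and 0.29, which bounds the differences without showing that the groups were equal. The lowest library for 8 of the 10 enzymes among Sox3U3-EGFP+ cells was library 4, and the highest for 6 of 10 among Lmx1aE1-EGFP+ cells was library 4.

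**Figure D2:**
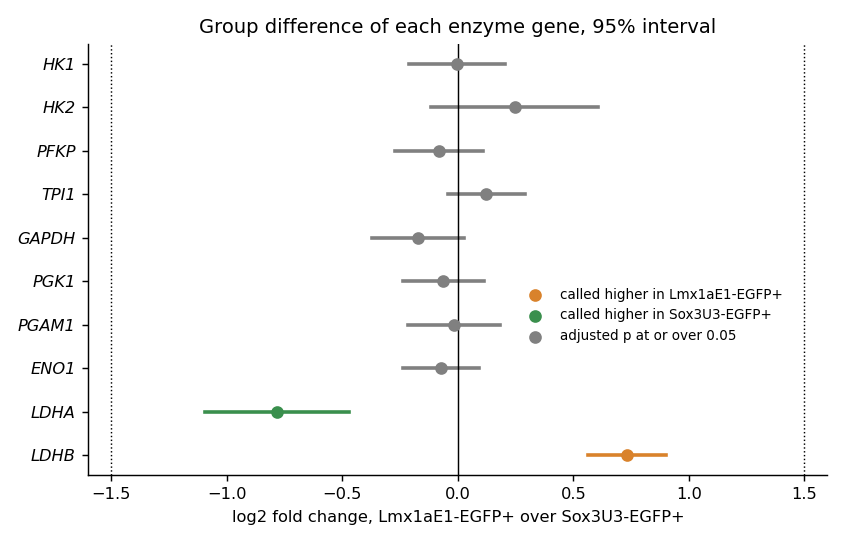
Log2 fold change of each enzyme gene (x axis, Lmx1aE1-EGFP+ over Sox3U3-EGFP+, 4 libraries each) with a 95% interval derived from edgeR's test, in pathway order, and dotted lines at the study's fold-change threshold of 1.5. Only LDHA (-0.78) and LDHB (0.73) have intervals away from 0, on opposite sides and inside the dotted lines.

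Lactate dehydrogenase is a tetramer built from LDHA and LDHB subunits. In vertebrates the LDHA-rich enzyme of skeletal muscle favours making lactate, and the LDHB-rich enzyme of heart favours turning lactate back into pyruvate. LDHB (ENSGALG00000035836) had 2861, 2723, 2787 and 2939.8 CPM in Lmx1aE1-EGFP+ libraries and 1750.4, 1676, 1837 and 1537 CPM in Sox3U3-EGFP+ libraries. Every Lmx1aE1-EGFP+ library stood above every Sox3U3-EGFP+ library. The means were 2827 ± 93.7 and 1699.9 ± 127 CPM (SD, n = 4 each), a 1.66-fold rise (log2 fold change 0.73, standard error 0.08, adjusted p = 7.53e-06 from edgeR's test).

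LDHA (ENSGALG00000006300) had 226, 187, 215 and 144 CPM in Lmx1aE1-EGFP+ libraries and 347, 408, 294 and 278 CPM in Sox3U3-EGFP+ libraries. The groups did not overlap here either, in the opposite direction, as for 12.3% of all genes tested. The means were 193 ± 36.6 and 332 ± 58.7 CPM (SD, n = 4 each), so that LDHA was 1.72-fold higher in Sox3U3-EGFP+ cells (log2 fold change -0.78, standard error 0.15, adjusted p = 0.00139 from edgeR's test). By size, both changes are moderate among all genes tested, of which 80.6% had a smaller absolute fold change than LDHA and 78.2% a smaller one than LDHB.

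Both LDH genes were called under all 18 other settings that kept at least 2 libraries in each group. Among the 4 deeper libraries LDHB had a log2 fold change of 0.76, and among the 4 shallower ones 0.73. LDHA had -1.05 among the deeper libraries (adjusted p = 0.000862 from edgeR's test) and -0.47 among the shallower ones (adjusted p = 0.0353), and whether these differ was not tested. Leaving out any 1 library gave -0.86 to -0.67 for LDHA and 0.69 to 0.78 for LDHB, always past the threshold. Red blood cell markers ranged from 6.31 to 1230 CPM in Lmx1aE1-EGFP+ libraries and from 6.30 to 484 CPM in Sox3U3-EGFP+ libraries, and the library with the most, Lmx1aE1-EGFP+ library 4, had the lowest LDHA. Without that library the LDHA change was -0.67. In the 3 libraries under 100 CPM of these markers, 1 against 2, LDHB had a log2 fold change of 0.77 and LDHA one of -0.36. That choice was made after the data were seen, and these are given as values only, since the spread then comes from 2 Sox3U3-EGFP+ libraries and the lone Lmx1aE1-EGFP+ library is assumed to vary like them.

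**Figure D3:**
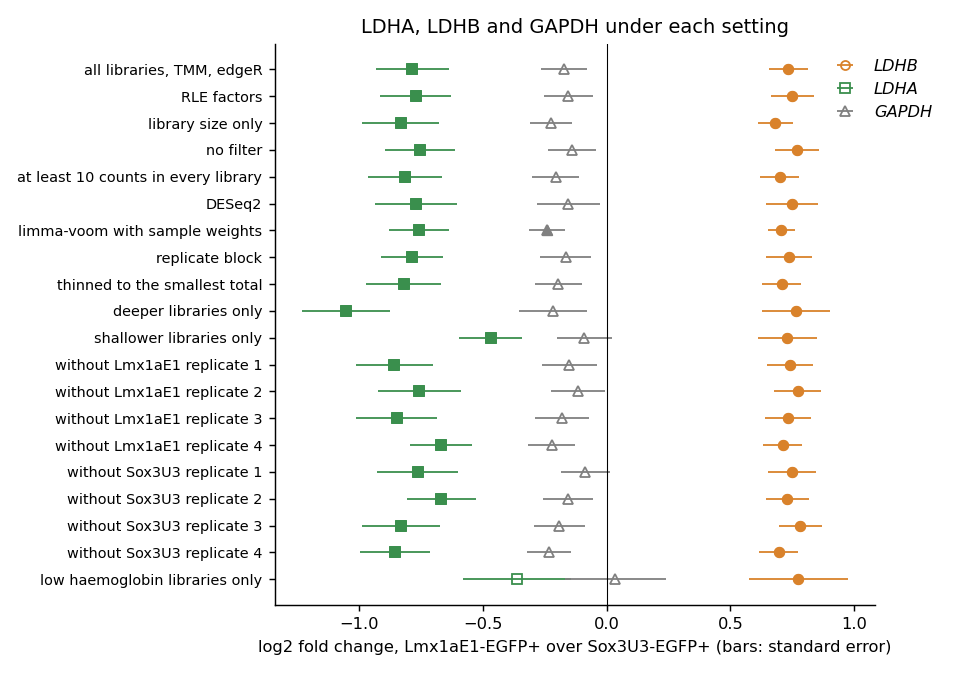
Log2 fold change of LDHA, LDHB and GAPDH (x axis, Lmx1aE1-EGFP+ over Sox3U3-EGFP+) under each setting of the analysis (y axis), with bars of 1 standard error, filled where the adjusted p is under 0.05. LDHB stays between 0.68 and 0.78 and filled throughout, LDHA ranges from -1.05 to -0.36 and is open in the bottom setting, the 3 libraries with few red blood cell markers (1 against 2), and GAPDH is filled with limma-voom only.

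**Figure D4:**
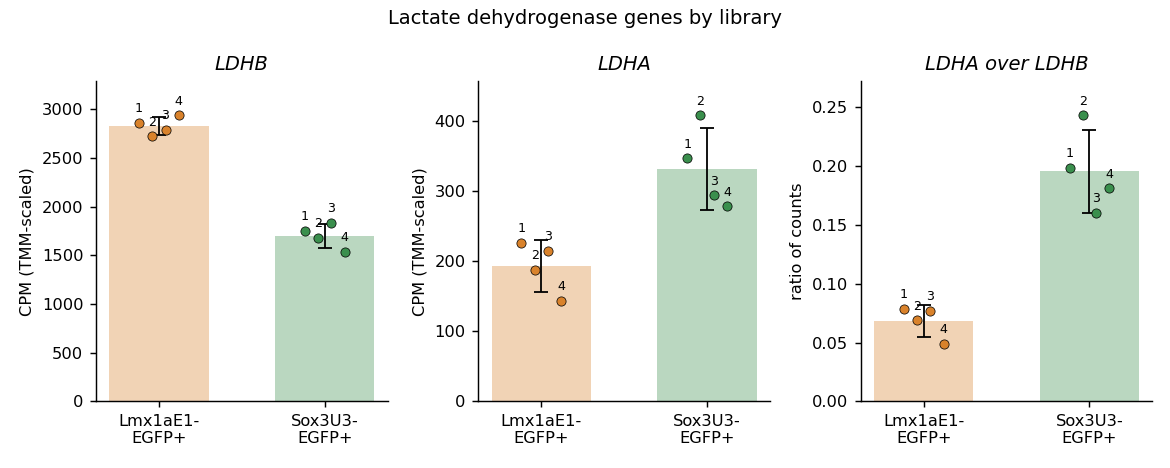
LDHB level, LDHA level (CPM) and the ratio of LDHA to LDHB counts in the 4 Lmx1aE1-EGFP+ (orange) and 4 Sox3U3-EGFP+ (green) libraries, with points numbered by library, bars at the mean and error bars of 1 SD. In each panel the groups do not overlap: LDHB is lower, and LDHA and the ratio are higher, in Sox3U3-EGFP+ libraries.

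A ratio of the counts of 2 genes within a library does not depend on the scaling between libraries. The ratio of LDHA to LDHB counts was 0.0789, 0.0688, 0.0772 and 0.0489 in Lmx1aE1-EGFP+ libraries and 0.198, 0.243, 0.160 and 0.181 in Sox3U3-EGFP+ libraries. It was 2.87-fold lower in Lmx1aE1-EGFP+ cells, with no overlap (difference in log2 ratio -1.52, p = 0.0286 by a two-sided exact permutation test, which is the lowest p that 4 libraries against 4 can give). Adjusted over the 3 isoenzyme ratios compared, this p was 0.0571. Because LDHA and LDHB were each separated, in opposite directions, their ratio had to be separated and the permutation p had to be its lowest. The test therefore adds no support of its own to the results of the 2 genes. The ratio of HK2 to HK1 counts was 0.0515 to 0.0726 and 0.0463 to 0.0543, which overlapped (difference in log2 ratio 0.25, exact permutation p = 0.0571, adjusted p = 0.0571). The ratio of PFKP to PFKL plus PFKM counts was 1.90 to 2.41 and 1.42 to 1.91, where Lmx1aE1-EGFP+ library 4 and Sox3U3-EGFP+ library 3 overlapped (difference in log2 ratio 0.40, exact permutation p = 0.0571, adjusted p = 0.0571). Counts were not divided by gene length, so the ratios compare groups and do not give the shares of the subunits.

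Markers of other cell types moved with the LDH genes in part. Heart muscle markers, of a tissue rich in LDHB, summed to 46.2 to 73.7 CPM in Lmx1aE1-EGFP+ libraries and 70.9 to 213 CPM in Sox3U3-EGFP+ libraries, with the lower mean level in the group with more LDHB, and 3 of 8 were called higher in Sox3U3-EGFP+ cells. The neural crest and epithelial markers given above moved with LDHB and with LDHA respectively. Endothelial markers summed to 59.1 to 129 and 99.0 to 182 CPM, and 1 of 6, KDR (log2 fold change -1.31), was called higher in Sox3U3-EGFP+ cells. Mesenchymal markers summed to 835 to 938 and 604 to 1170 CPM, with COL1A2 (-0.02) the most abundant. Of the 9 tested, 4 were called higher in Lmx1aE1-EGFP+ cells, as LDHB was, namely TWIST1 (1.80), COL1A1 (1.40), PDGFRA (0.87) and PRRX1 (0.78), and OSR1 (-1.30) was called in the other direction. These marker genes were named after their values were seen. The background for the counts was again 12.1% of all genes tested towards the Lmx1aE1-EGFP+ group and 11.3% towards the other. The part of any of these cell types, or of red blood cells, in the LDHA and LDHB differences was not tested. Proliferation markers, which go with the cell cycle, summed to 4590 to 5270 CPM and 3380 to 4360 CPM, and 4 of 9 were called higher in Lmx1aE1-EGFP+ cells, against 12.1% of all genes tested. The count fell to 2 without Lmx1aE1-EGFP+ library 1, 2 or 3 or Sox3U3-EGFP+ library 4, where 8.6% to 10.4% of all genes were called in that direction.

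The genes whose profile over the 8 libraries lay nearest to the LDH genes were found among 7636 named genes with a mean of at least 10 CPM, by the root mean square difference of log2 CPM after centring each gene on its mean. For LDHB they were TMEM123 (0.05), CDC27 (0.07) and SNU13 (0.07), with log2 fold changes of 0.71, 0.69 and 0.61. For LDHA they were EVPL (0.16), ARHGEF10 (0.17) and HEXD (0.17), with log2 fold changes of -0.66, -0.70 and -0.66. EVPL encodes envoplakin, a protein of the epithelial cell envelope. CDC27 is a subunit of the anaphase-promoting complex and SNU13 a protein of small nucleolar and spliceosomal RNPs. The LDHA matches were looser than the LDHB ones, and LDHA also had the larger coefficients of variation within the groups, 19.0% and 17.7% against 3.31% and 7.48% for LDHB.

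Of 13 other glycolysis genes tested, 1 was called higher in Lmx1aE1-EGFP+ cells, and 3 were called higher in the Sox3U3-EGFP+ group, against 12.1% and 11.3% of all genes tested (median log2 fold change -0.38). Among them, PFKM, the muscle phosphofructokinase, was at 7.99 to 14.5 CPM in Lmx1aE1-EGFP+ libraries and at 23.3 to 34.4 CPM in Sox3U3-EGFP+ libraries (log2 fold change -1.18; edgeR, adjusted p = 0.000385). ENO2, the neuronal enolase, was at 6.52 to 7.99 CPM and 12.6 to 18.5 CPM (log2 fold change -1.02). ALDOC, a brain form of aldolase, was at 72.1 to 86.3 CPM and 36.1 to 63.9 CPM (log2 fold change 0.58). PFKL, the liver phosphofructokinase, was called at -0.37 with overlapping libraries (edgeR, adjusted p = 0.0362), and lost the call with any of 6 libraries left out, all but Lmx1aE1-EGFP+ library 4 and Sox3U3-EGFP+ library 3 (adjusted p at most 0.153). PKM, the pyruvate kinase just upstream of LDH, and GPI, the isomerase after hexokinase, were chosen after their values were seen, and had log2 fold changes of -0.05 and 0.06 (edgeR, adjusted p = 0.722 and 0.664).

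Glucose enters and lactate leaves the chain through membrane carriers. Of 17 sugar and lactate transport genes 5 were called higher in Sox3U3-EGFP+ cells, against 11.3% of all genes tested. In Lmx1aE1-EGFP+ cells 0 were called by edgeR, also at an unadjusted p under 0.05 and with DESeq2 and limma-voom, against 12.1%. SLC16A3, the lactate exporter MCT4 found in strongly glycolytic mammalian tissue, had 80.7, 61.2, 59.1 and 61.8 CPM in Lmx1aE1-EGFP+ libraries and 108, 138, 87.1 and 109.6 CPM in Sox3U3-EGFP+ libraries (log2 fold change -0.75; edgeR, adjusted p = 0.00104). BSG, the basigin chaperone that carries lactate transporters to the membrane, had 1196 to 1325 and 1697 to 1975 CPM (log2 fold change -0.55; edgeR, adjusted p = 0.000126). EMB, embigin, a relative of basigin, had a log2 fold change of -0.73, and it was not called by edgeR without Lmx1aE1-EGFP+ library 3 or Sox3U3-EGFP+ library 3 (adjusted p at most 0.067). The other 2 called genes, named after their values were seen, were SLC2A1, the glucose carrier GLUT1 (252 to 296 and 322 to 449.95 CPM, log2 fold change -0.47), and SLC16A1, the lactate carrier MCT1 (-0.32), which lost the call without Lmx1aE1-EGFP+ library 1 or 2 or Sox3U3-EGFP+ library 1 or 4 (adjusted p at most 0.141). The count of 5 was 1 among the shallower libraries, where 6.8% of all genes were called in that direction.

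**Figure D5:**
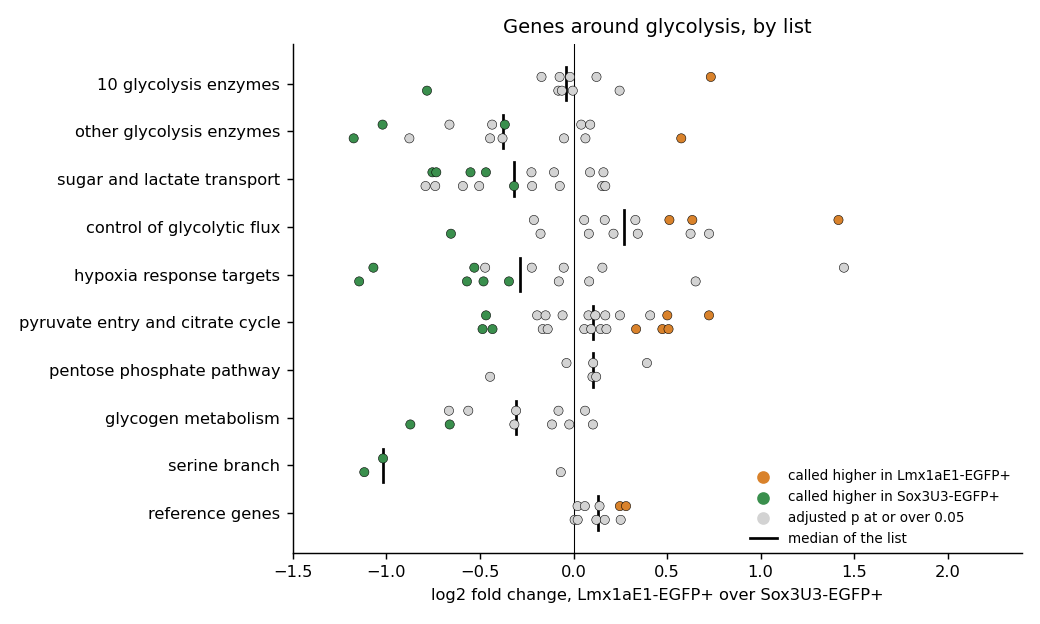
Log2 fold change (x axis, Lmx1aE1-EGFP+ over Sox3U3-EGFP+) of every tested gene in 10 lists around glycolysis, with 1 point per gene, a bar at the list's median, and colour for genes called by edgeR at an adjusted p under 0.05. The 10 enzymes cluster near 0 apart from LDHA and LDHB, whereas called transport and hypoxia genes all lie on the Sox3U3-EGFP+ side.

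Glycolytic flux is influenced by kinases, by the pyruvate dehydrogenase switch and by transcription factors such as MYC and the hypoxia-inducible factors. Of 14 such genes 3 passed as higher in Lmx1aE1-EGFP+ cells, and 1 as higher in the Sox3U3-EGFP+ group, against 12.1% and 11.3% of all genes tested (median log2 fold change 0.27). MYC had 33.9, 23.8, 21.6 and 14.9 CPM against 8.71, 11.3, 5.36 and 9.21 CPM (log2 fold change 1.42; edgeR, adjusted p = 0.000855), with no overlap. MYCN (0.64) and ARNT (0.51), the partner of hypoxia-inducible factors, were also called higher, the former not without Lmx1aE1-EGFP+ library 1 or 3 (edgeR, adjusted p at most 0.056). EPAS1, the factor HIF-2α, was called higher in Sox3U3-EGFP+ cells at -0.66 (edgeR, adjusted p = 0.048), and kept the call with only 1 of the 8 libraries left out, Sox3U3-EGFP+ library 3 (adjusted p of the others at most 0.137).

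Hypoxia targets, a list that holds none of the 10 enzymes, were called higher in Sox3U3-EGFP+ cells for 6 of 14 genes, against 11.3% of all genes tested. They include STC2 (log2 fold change -1.15), NDRG1 (-1.07) and the collagen prolyl hydroxylase P4HA2 (-0.57). P4HA2 lost the call without Lmx1aE1-EGFP+ library 2 or 3 or Sox3U3-EGFP+ library 4 (edgeR, adjusted p at most 0.062). In Lmx1aE1-EGFP+ cells 0 hypoxia targets were called by edgeR, and 1 each by DESeq2 and limma-voom. At an unadjusted p under 0.05 edgeR gave 2, DDIT4 (1.45) and ANGPTL4 (0.65), named after their values were seen. DDIT4 had the largest absolute log2 fold change of the list, with overlapping libraries. Among the deeper libraries 2 were called in each direction, against 6.92% of all genes higher in Lmx1aE1-EGFP+ and 5.65% higher in Sox3U3-EGFP+ libraries. The median of the list was -0.28, against -0.04 for all genes tested.

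Of 22 genes that carry pyruvate into the mitochondrion and through the citrate cycle, 5 were called higher in Lmx1aE1-EGFP+ cells, and 3 others in the Sox3U3-EGFP+ group, against 12.1% and 11.3% of all genes tested (median 0.11). The former include DLAT, a subunit of pyruvate dehydrogenase (0.72), the pyruvate carrier MPC2 (0.51) and citrate synthase, CS (0.50). The latter are the 3 subunits of succinate-CoA ligase, SUCLG2 (-0.49), SUCLA2 (-0.47) and SUCLG1 (-0.43). DLAT was not called without Lmx1aE1-EGFP+ library 1 (edgeR, adjusted p = 0.0616). Among the deeper libraries 2 and 0 genes of this list were called, against 6.92% and 5.65% of all genes. Among the shallower ones the counts were 1 and 2, against 7.38% and 6.8%.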

How the data were processed

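RNAseq was done on 4 Lmx1aE1-EGFP+ and 4 Sox3U3-EGFP+ libraries of 2000 FACS-sorted chick cells each. The deposited values are whole-number counts per gene, which the authors made with Trim Galore, STAR within the NF-core RNAseq pipeline (v2.0) and featureCounts on GalGal6; the strand setting is not given in the sources used here, so reads of overlapping antisense genes, and of near-identical copies, could be shared. Groups were taken from the sample titles. Genes were filtered with filterByExpr, scaled with TMM and tested with edgeR 4.0.16 (robust quasi-likelihood, Benjamini-Hochberg over 16861 genes, called at an adjusted p under 0.05) in R 4.3.3, after the steps were tested on simulated data. CPM values carry the TMM factors. Isoenzyme ratios were compared by exact permutation over libraries. DESeq2 1.42.0, limma 3.58.1 (voom with sample weights), RLE factors, library size only, other filters, thinning, depth classes, a replicate block and leaving out each library were the alternatives. The fit to the 3 libraries with few red blood cell markers was added after the data were seen.

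The 10 enzymes and all gene lists were chosen with earlier results of these data known. Beside the enzymes, the text names for each list and direction at most 3 called genes, those that changed most, and exceptions are marked where they appear. List names were matched to the table by symbol, and SLC2A3 through its RefSeq synonym SLC2A14; listed names without a match were not analysed here. All 28 pairs of libraries differed by more than sampling noise (chi-square per degree of freedom at least 3.57). Totals of 6559872 to 45183366 counts set the precision, and the biological coefficient of variation was 0.225.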

Additional observations from a re-analysis of the deposited data

How the results depend on the processing

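LDHB and LDHA kept their directions under all 19 alternatives (0.68 to 0.78 and -1.05 to -0.36), and their calls under the 18 with at least 2 libraries a group (LDHA -1.05 to -0.47). In the other, the 3 libraries with few red blood cell markers, the spread comes from 2 libraries of 1 group, so its counts do not show whether calls hold. The number of enzymes called higher in Lmx1aE1-EGFP+ cells was 1 throughout, and that past both thresholds was 0. With a fold-change threshold of 1 it was 0 over all libraries, while LDHA, at -1.05, passed that threshold among the deeper ones. The number called higher in Sox3U3-EGFP+ cells became 2 with limma-voom, through GAPDH, and 0 in the 3 libraries with few red blood cell markers. Values near 0 changed sign. HK1, at -0.004, became 0.012 with RLE factors, 0.033 without a filter, 0.013 with DESeq2, 0.025 with limma-voom and 0.16 among the deeper libraries, and ranged from -0.066 to 0.064 with 1 library left out. PGAM1, at -0.02, became 0.016 without a filter, 0.0038 among the shallower libraries and 0.18 in the libraries with few red blood cell markers, and ranged from -0.091 to 0.034 with 1 library left out. In the last of these settings GAPDH became 0.035, PGK1 0.027 and ENO1 0.042. The cause was not tested.

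With 1 library left out, the difference in log2 ratio ranged from -1.61 to -1.37 for LDHA over LDHB, from 0.16 to 0.32 for HK2 over HK1, and from 0.33 to 0.49 for PFKP over PFKL plus PFKM. The HK2 ratio reached an exact permutation p of 0.0286 without Lmx1aE1-EGFP+ library 4, and the PFKP ratio without Sox3U3-EGFP+ library 3. Each of these libraries overlapped the other group. This p is unadjusted and is the lowest that the remaining libraries can give.

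The sample titles do not say whether same-numbered libraries were collected together. Their deviations from the group means were not clearly shared (correlations of -0.11, -0.23, 0.05 and -0.16), which cannot settle it. Only for Lmx1aE1-EGFP+ library 3 was the same-numbered library the best match. Every same-numbered pair joined a deeper with a shallower library, and the effect of this on the correlations and on the replicate block was not tested. With the replicate block 1550 and 1464 of all genes were called, against 2033 and 1904, and LDHA (-0.79) and LDHB (0.74) were both called. Transport genes called higher in Sox3U3-EGFP+ cells fell from 5 to 3. The LDHA over LDHB difference of -1.52 had an exact sign-flip p of 0.125, the smallest that 4 pairs allow. That p also followed from the separation of both genes. Over all genes the calls were 1308 and 1068 among the deeper, 1155 and 1064 among the shallower, and 847 and 610 in the 3 libraries with few red blood cell markers. Depth limits HK2 most, with 105 to 574 counts per library.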

Other observations

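Serine synthesis draws on 3-phosphoglycerate. In a list of genes around serine, 2 of 3 tested were called higher in Sox3U3-EGFP+ cells, against 11.3% of all genes tested. The serine synthesis aminotransferase PSAT1 was at 209 to 265 CPM in Lmx1aE1-EGFP+ libraries and 415 to 758 CPM in Sox3U3-EGFP+ libraries, with no overlap (log2 fold change -1.12; edgeR, adjusted p = 0.000823). PSPH, the phosphatase, had a log2 fold change of -1.02 and was not called without Lmx1aE1-EGFP+ library 3 or 4 or Sox3U3-EGFP+ library 3 (edgeR, adjusted p at most 0.0775). The other tested gene, SHMT1, named after its value was seen, was not called (-0.07). PHGDH, also listed, had no match by name, so it was not measured here. Among 11 glycogen genes 2 were called higher in Sox3U3-EGFP+ cells, PGM1 (-0.87), which links glucose 1-phosphate to glycolysis, and the liver glycogen phosphorylase PYGL (-0.66), and 4 with limma-voom, against 11.3% of all genes tested with edgeR and 14.6% with limma-voom.

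Of 6 pentose phosphate genes 0 were called by edgeR, 1 at an unadjusted p under 0.05, and 1 each by DESeq2, by limma-voom and by edgeR with library size only, with the stricter filter or after thinning, higher in Sox3U3-EGFP+ cells. Of 4 gluconeogenesis genes 0 were called by edgeR, DESeq2 or limma-voom and 0 at an unadjusted p under 0.05. Of all genes tested, edgeR called 12.1% higher in Lmx1aE1-EGFP+ and 11.3% higher in Sox3U3-EGFP+ cells. All 10 genes of a reference list had positive log2 fold changes (median 0.13, against -0.04 for all genes tested), and PPIA (0.28) and RPL13 (0.25) were called. The list leaves out GAPDH, also a common reference gene, which was at -0.17 and not called. PPIA was not called without Lmx1aE1-EGFP+ library 1, and RPL13 was called only without Lmx1aE1-EGFP+ library 4 or Sox3U3-EGFP+ library 3 among the 8 libraries left out. The cell cycle genes MCM3 (0.55) and PCNA (0.48) were called with any library left out, whereas TOP2A (0.33) was not in 5 of 8.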
